A study of Mus musculus with 8 samples.

Results

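The matrix metalloproteinases (MMPs), the ADAMTS proteases and their inhibitors form the secreted machinery that remodels the extracellular matrix. All rows of the tumor count table whose identifier maps to a protein-coding gene named Mmp, Timp, Adamts or Adamtsl with a number and at most 1 letter were taken, which gave 50 of 55487 rows. These were 22 Mmp, 4 Timp, 19 Adamts and 5 Adamtsl genes, chosen by name with no measured value in the rule. The RNA came from tumors of Lewis lung carcinoma (LLC) cells, a mouse line implanted under the skin of young adult female C57BL/6J mice, the strain the line came from, and collected at day 12. The 2 groups differed in the genotype of the implanted cells, with 4 tumors grown from wild-type LLC cells and 4 from cells labelled Ago2 knock-out (ΔAgo2), and none received a drug. Knock-out cells came from lentiviral delivery of a CRISPR guide, antibiotic selection and single-cell sorting, and 1 clone was taken for engraftment, so the label stands for 1 clone, and what the clone carries besides the edit cannot be told apart from the loss of Ago2. Host cells in these tumors kept Ago2.

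MMPs are zinc endopeptidases that are made as inactive proenzymes and are switched on by removal of the propeptide, either by other proteases or, for the membrane-type members, inside the secretory pathway. Collagenases cut fibrillar collagen, gelatinases cut denatured collagen and basement membrane, and stromelysins cut proteoglycans and fibronectin and activate other MMPs. The tissue inhibitors of metalloproteinases (TIMPs) block the active site. ADAMTS proteases include the enzymes that cut aggrecan and versican and those that trim procollagen, and the ADAMTS-like proteins share their binding modules but lack a protease domain. In tumors these genes are known to be transcribed by cancer cells and by fibroblasts, macrophages and neutrophils.

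Total counts ran from 7903288 to 268564145 per library, so that 0 counts allow a level of up to 0.43 CPM (counts scaled to a library total of 1e+06) in wild-type tumor 4, the shallowest, and 0.0105 CPM in ΔAgo2 tumor 4, the deepest. Such limits take 3 counts as the ceiling of a 0 and cover counting error only. The transcript of the targeted gene, Ago2, had a log2 fold change of 0.64 (standard error 0.305, edgeR adjusted p = 0.205), so it was not lower in tumors labelled ΔAgo2. An edit need not lower the transcript and protein is not in these data, so the transcript does not check the labels, on which every direction given here rests. Summed skeletal muscle markers stood at 5263 TPM (length-scaled counts, set to the same total) in wild-type tumor 3 and at 373.9 to 529.2 TPM in the other wild-type tumors, all above the 95.5 to 328 TPM of the ΔAgo2 tumors. Skin keratinocyte markers were lowest in wild-type tumors 3 and 4 (15.7 and 170.1 TPM, against 517.5 to 1406), and adipocyte markers were highest in wild-type tumor 3 and ΔAgo2 tumor 1 (483.5 and 703.6 TPM, against 24.2 to 77.6). The 10 lung epithelial and carcinoma markers summed to 858.2 to 1622 TPM in wild-type and 1587 to 1915 TPM in ΔAgo2 tumors. Of these, 5 were abundant enough to test, while Nkx2-1 and Sftpa1, which define lung epithelium, were at 0 in every library.

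A cluster on chromosome 9 holds 9 of the MMP genes within 427.1 kb, and both MMP genes that passed the test lie in it. The 5′ flanks of 4 of its genes and of Adamts1 are shown because the results turn on Mmp3, Mmp13 and Adamts1. Mmp10 and Mmp1b are the nearest to Mmp3 among the genes that met the naming rule, which left out other genes such as pseudogenes. Each stretch is the 120 bases before the RefSeq start on GRCm38.p6, read 5′ to 3′ on the coding strand. Capitals mark TGANTCA, the letters bound by AP-1, a Fos and Jun dimer known to drive many MMP promoters, and TATAAA, the TATA box.
Mmp13 (chr9:7272394-7272513, plus strand): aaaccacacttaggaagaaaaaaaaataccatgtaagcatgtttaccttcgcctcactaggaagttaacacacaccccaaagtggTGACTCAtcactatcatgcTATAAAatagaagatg
Mmp3 (chr9:7445702-7445821, plus strand): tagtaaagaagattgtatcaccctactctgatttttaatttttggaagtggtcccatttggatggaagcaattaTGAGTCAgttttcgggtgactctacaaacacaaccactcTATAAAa
Mmp10 (chr9:7502222-7502341, plus strand): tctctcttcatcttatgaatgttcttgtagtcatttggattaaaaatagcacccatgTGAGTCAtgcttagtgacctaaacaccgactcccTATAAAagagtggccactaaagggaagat
Mmp1b (chr9:7388027-7388146, minus strand): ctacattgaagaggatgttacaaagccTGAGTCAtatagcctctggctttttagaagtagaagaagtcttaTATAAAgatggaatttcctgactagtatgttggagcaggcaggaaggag
Adamts1 (chr16:85803114-85803233, minus strand): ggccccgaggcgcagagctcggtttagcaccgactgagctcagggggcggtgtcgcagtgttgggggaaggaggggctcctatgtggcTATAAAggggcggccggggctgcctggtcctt

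The search ran on both strands of windows from 250 bases before to 50 after each start, and 35 of the 50 genes had such a window. TGANTCA was found in 7 of the 35, all within the cluster (Mmp7, Mmp10, Mmp12, Mmp13, Mmp1b, Mmp20 and Mmp3), and in 7.81% of 32851 windows of all genes. TATAAA was found in 11 of the 35 and in 13.6% of all windows. The first base of the AP-1 letters lay 35 bases before the start in Mmp13, 46 in Mmp3, 63 in Mmp10 and 93 in Mmp1b. Mmp3, Mmp13 and Mmp10 carried both sets of letters in the same order, and the part of these letters in the comparison that follows was not tested. Adamts1 had TATAAA 32 bases before its start and no TGANTCA in the window. A match of letters is a description and not a site of binding.

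Wild-type and ΔAgo2 tumors were compared gene by gene to ask which of these proteases and inhibitors differed with the genotype of the cancer cells. Mmp3 was much lower in tumors labelled ΔAgo2, Adamts1 was lower and Mmp13 was higher, whereas the abundant Mmp14 and Timp2 did not pass the test. Of the 50 genes, 38 were abundant enough to be tested and 3 passed an adjusted p of 0.05, against 3.49% of the 16061 genes tested (1.36% higher and 2.12% lower). Differences were tested by edgeR (quasi-likelihood) and adjusted by Benjamini-Hochberg over all 16061 genes. At an unadjusted p under 0.05 there were 17 of the 38, against 26.7% of all genes. In 5 of the 38 (Mmp3, Mmp13, Timp2, Adamts1 and Adamts17) the 4 values of one group did not overlap those of the other, against 16.4% of all genes. For Adamts17 the counts were too few to resolve this. The log2 fold change was below 0 for 25 of the 38, where 47.5% of all genes tested were below 0, and its median was -0.45 against 0.04 for all genes. These tumors are mixtures, so that fewer cells of a type and less RNA per cell cannot be told apart in any of these values.

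**Figure D1:**
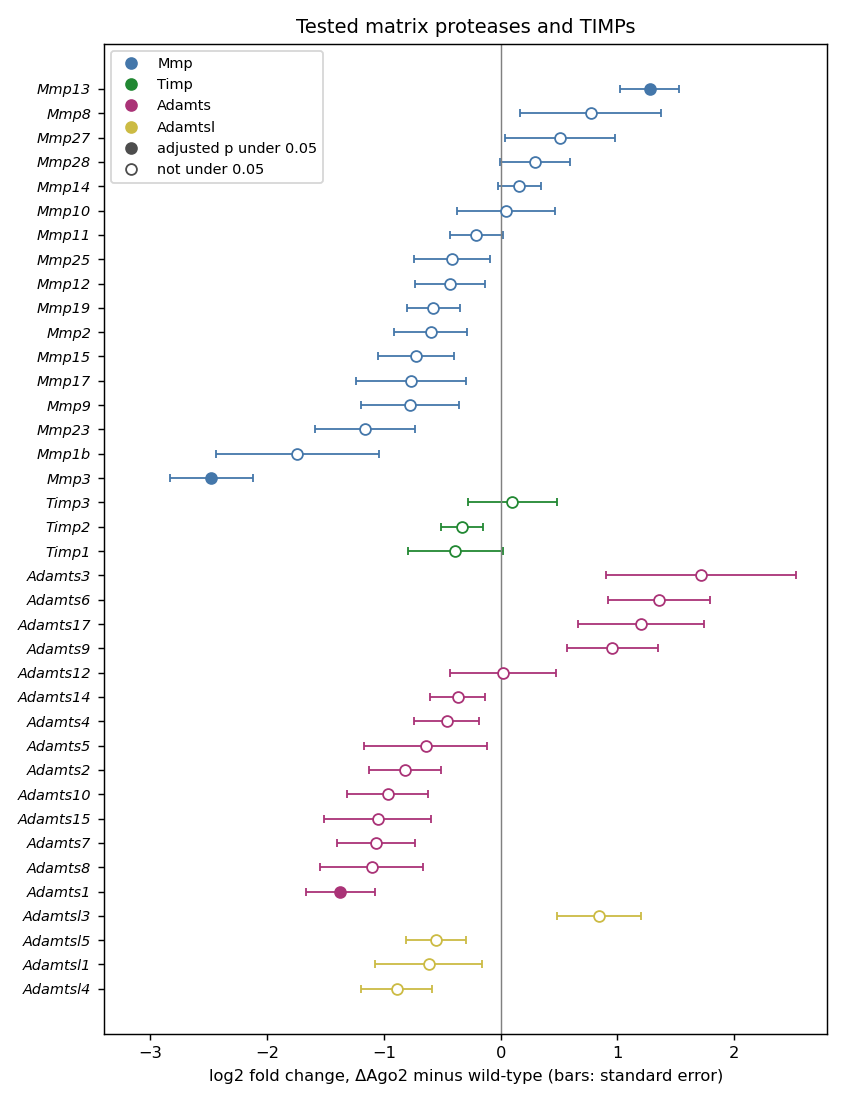
Log2 fold change (ΔAgo2 minus wild-type, x axis) of the 38 tested genes, 1 per row and grouped by family, with bars for the standard error and filled points for an adjusted p under 0.05. Most points lie left of 0, from -2.48 for Mmp3 to 1.72 for Adamts3, and the 3 filled points are Mmp13, Mmp3 and Adamts1.

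Mmp3 (ENSMUSG00000043613.8, chr9:7445822-7455975 on GRCm38) encodes stromelysin-1, which cuts proteoglycans, laminin and fibronectin and activates other pro-MMPs. Its level was 292, 140, 318.9 and 205.5 CPM in wild-type tumors 1 to 4 and 70.6, 25.7, 36.9 and 38.5 CPM in ΔAgo2 tumors 1 to 4. Every wild-type tumor lay above every ΔAgo2 tumor, and ΔAgo2 tumor 1 was the highest of its group. Means were 239.1 ± 81.9 and 42.9 ± 19.3 CPM (SD, n = 4), which is 5.57-fold lower in the fit, with a log2 fold change of -2.48 (standard error 0.36, edgeR adjusted p = 0.00643). Mmp3 passed in each of 21 alternative settings, with log2 fold changes from -2.86 to -2.27 and adjusted p-values from 3.18e-09 to 0.0403, and this includes each fit without 1 library. The exons of Mmp3 overlap no other annotated gene.

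**Figure D2:**
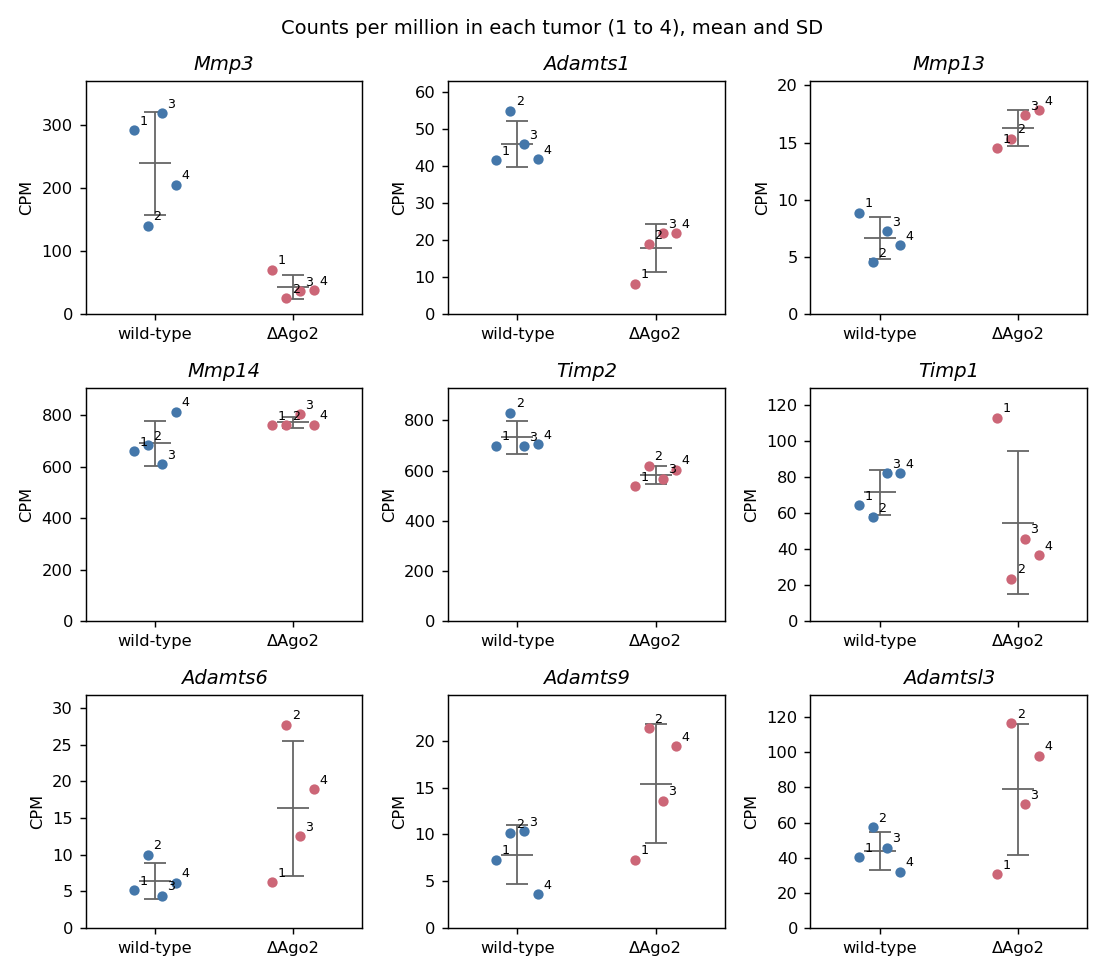
CPM (y axes, each from 0) of 9 genes in each tumor, numbered 1 to 4, with the mean and SD of each group. Mmp3 and Adamts1 lie lower and Mmp13 higher in all 4 ΔAgo2 tumors, Timp2 does not overlap but its difference did not pass the test, and ΔAgo2 tumor 1 stands with the wild-type tumors for Adamts6, Adamts9 and Adamtsl3.

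The other stromelysins did not pass the test. Mmp10 (stromelysin-2), 46.4 kb from Mmp3, had 4.93, 2.67, 9.86 and 4.01 CPM in wild-type tumors and 8.47, 3.74, 4.36 and 5.90 CPM in ΔAgo2 tumors, and the groups overlapped throughout. The log2 fold change of Mmp10 was 0.05 (standard error 0.42, adjusted p = 0.953), with 0.53 when wild-type tumor 3 was left out and -0.22 when ΔAgo2 tumor 1 was. Mmp11 (stromelysin-3), which lies outside the cluster, had 25.0, 37.2, 25.5 and 43.4 CPM against 27.1, 27.0, 27.3 and 31.7 CPM. Its log2 fold change of -0.21 (adjusted p = 0.566) became 0.23 with each library's trend on GC content removed, and it passed under neither.

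Mmp13 (ENSMUSG00000050578.10, chr9:7272514-7283331) encodes collagenase-3, which cuts fibrillar collagens, and lies 162.5 kb from Mmp3. It had 8.88, 4.53, 7.25 and 6.02 CPM in wild-type tumors 1 to 4 and 14.5, 15.3, 17.4 and 17.8 CPM in ΔAgo2 tumors 1 to 4, without overlap. Mmp13 had a log2 fold change of 1.28 (standard error 0.25, edgeR adjusted p = 0.0256), which is 2.42-fold higher. Its mean level per length was low, 6.67 ± 2.39 TPM in wild-type and 19.0 ± 4.83 TPM in ΔAgo2 tumors (SD, n = 4), against 356 ± 151.8 and 68.9 ± 14.2 TPM for Mmp3. The ratio of Mmp3 to Mmp13 TPM was 45.8 to 65.2 in wild-type tumors and 2.49 to 7.22 in ΔAgo2 tumors, a description that follows from both calls. Mmp13 passed in 11 of 21 alternatives. With the GC trend removed its log2 fold change was 0.71 with an adjusted p of 0.0991, and its GC content of 41.7% is the lowest among the genes named by the rule given in the methods. Without wild-type tumor 2 or 4, or ΔAgo2 tumor 2, 3 or 4, the adjusted p was 0.0723, 0.054, 0.0717, 0.0779 and 0.0991, with log2 fold changes from 1.13 to 1.29.

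Among the other collagenases, Mmp8 (neutrophil collagenase) had 2.19, 0.381, 2.59 and 0.287 CPM in wild-type and 1.68, 1.76, 3.52 and 3.04 CPM in ΔAgo2 tumors. For Mmp8 the log2 fold change was 0.77 (standard error 0.60, adjusted p = 0.419). Neutrophil markers summed to 46.7 TPM in wild-type tumor 2 and 81.5 TPM in wild-type tumor 4, where Mmp8 was also lowest, and to 118.9 to 290.8 TPM in the other tumors. Their part in the Mmp8 values was not tested. Mmp1b was placed here as a mouse counterpart of interstitial collagenase, and whether it cuts collagen is not in these data. It had 43, 10, 40 and 0 counts in wild-type and 2, 21, 3 and 94 counts in ΔAgo2 tumors. At their depths these are 0.806, 0.477, 0.841 and 0 CPM against 0.041, 0.184, 0.0896 and 0.329 CPM, and the 0 in wild-type tumor 4 allows up to 0.43 CPM. Its log2 fold change was -1.74 (standard error 0.70, adjusted p = 0.148), and 10.8% of its exon length overlaps Mmp12 on the other strand.

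**Figure D3:**
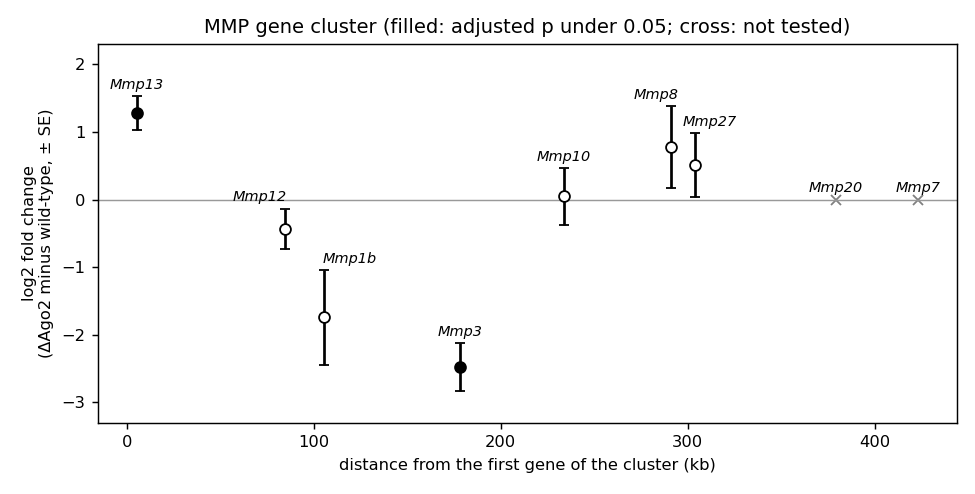
Log2 fold change (ΔAgo2 minus wild-type, y axis) with its standard error for the MMP genes of the cluster, against the distance of the gene's middle from the start of the first gene (x axis, kb). Mmp13 at 1.28 and Mmp3 at -2.48 are filled (adjusted p under 0.05), the 5 open points did not pass, and the crosses mark Mmp20 and Mmp7, which were not tested.

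In order along the cluster, the log2 fold changes were 1.28 for Mmp13, -0.44 for Mmp12, -1.74 for Mmp1b, -2.48 for Mmp3, 0.05 for Mmp10, 0.77 for Mmp8 and 0.51 for Mmp27. The sign changed between Mmp13 and Mmp12 and between Mmp3 and Mmp10, while Mmp12 and Mmp1b were below 0 with Mmp3. The nearest of these genes to Mmp3 on either side did not pass. Mmp20 (enamelysin) had 0 counts in all 8 libraries and Mmp7 (matrilysin) had 2 counts in all.

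The membrane-type enzyme Mmp14, which activates pro-MMP2 at the cell surface, was the most abundant MMP per length in tumors labelled ΔAgo2. It had 660.4, 684, 609.9 and 814.2 CPM in wild-type and 761.9, 761.6, 804.3 and 763.1 CPM in ΔAgo2 tumors. The ΔAgo2 values lay within the wild-type range, and the log2 fold change was 0.16 (standard error 0.19, adjusted p = 0.597). The gelatinase Mmp2 had 44.9, 52.5, 85.0 and 27.4 CPM against 42.5, 30.4, 38.5 and 27.7 CPM, with a log2 fold change of -0.60 (standard error 0.31, adjusted p = 0.239). Wild-type tumor 3 was the highest here, and without it the value was -0.26. The gelatinase Mmp9, which neutrophils and macrophages also make, had 84.8, 104.7, 26.5 and 36.3 CPM against 30.2, 23.9, 51.5 and 41.9 CPM. Its 2 high wild-type tumors gave a log2 fold change of -0.78 (standard error 0.42, adjusted p = 0.253), and the other wild-type tumors lay among the ΔAgo2 values.

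Mmp19, an MMP without close relatives, had 46.6, 37.7, 63.8 and 53.9 CPM in wild-type and 31.0, 28.1, 32.3 and 43.9 CPM in ΔAgo2 tumors, with only ΔAgo2 tumor 4 inside the wild-type range. Its log2 fold change was -0.58 (standard error 0.23, adjusted p = 0.141), and 28.3% of its exon length overlaps genes on the other strand. Mmp23 had 2.34, 3.53, 5.89 and 6.16 CPM against 3.28, 1.22, 2.00 and 1.46 CPM, and a log2 fold change of -1.16 (standard error 0.43, adjusted p = 0.126). Without ΔAgo2 tumor 1 it was -1.52 and passed (adjusted p = 0.0468). The other tested MMPs, Mmp12 (macrophage elastase), Mmp15, Mmp17, Mmp25, Mmp27 and Mmp28, had log2 fold changes from -0.77 to 0.51 and none passed. With the GC trend removed, Mmp12 was at -1.05 and Mmp15 went from -0.72 to -0.10. Macrophage markers, of which 0 of 10 passed, summed to 2885 to 3446 TPM in wild-type and 2485 to 4659 TPM in ΔAgo2 tumors.

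The inhibitors were led by Timp2, which blocks MMPs and also serves as the bridge for pro-MMP2 activation by Mmp14. Timp2 had 699.8, 830.6, 696.3 and 704.5 CPM in wild-type and 538.3, 619.9, 566.8 and 603.4 CPM in ΔAgo2 tumors. The groups did not overlap, but the log2 fold change was -0.33 (standard error 0.18, adjusted p = 0.256) and passed in 0 of 21 alternatives. Timp1 had 64.3, 57.7, 82.2 and 82.3 CPM in wild-type tumors and 113, 23.6, 45.9 and 36.6 CPM in ΔAgo2 tumors. ΔAgo2 tumor 1 was the highest and the other ΔAgo2 tumors were the lowest of all 8, so the log2 fold change of -0.39 (standard error 0.41, adjusted p = 0.556) became -1.02 without that library and passed (adjusted p = 0.0386). ΔAgo2 tumor 1 also had the highest adipocyte and macrophage marker sums and the lowest fibroblast sum (781.9 TPM, against 1448 to 2676 in the other tumors), and their part in the Timp1 value was not tested.

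Timp3, the inhibitor that binds to matrix and blocks ADAMTS proteases, had 6.13, 6.29, 16.1 and 4.16 CPM against 9.50, 7.26, 10 and 8.80 CPM. Wild-type tumor 3 was apart from the rest, and the log2 fold change went from 0.10 (standard error 0.38, adjusted p = 0.883) to 0.67 without it (adjusted p = 0.138). Of its exon length, 21.3% overlaps Syn3 on the other strand. Timp4 had 45 counts in all and was not tested. ΔAgo2 tumors 1 and 4 held 19 and 18 of these, which at their depths is 0.39 and 0.063 CPM.

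**Figure D4:**
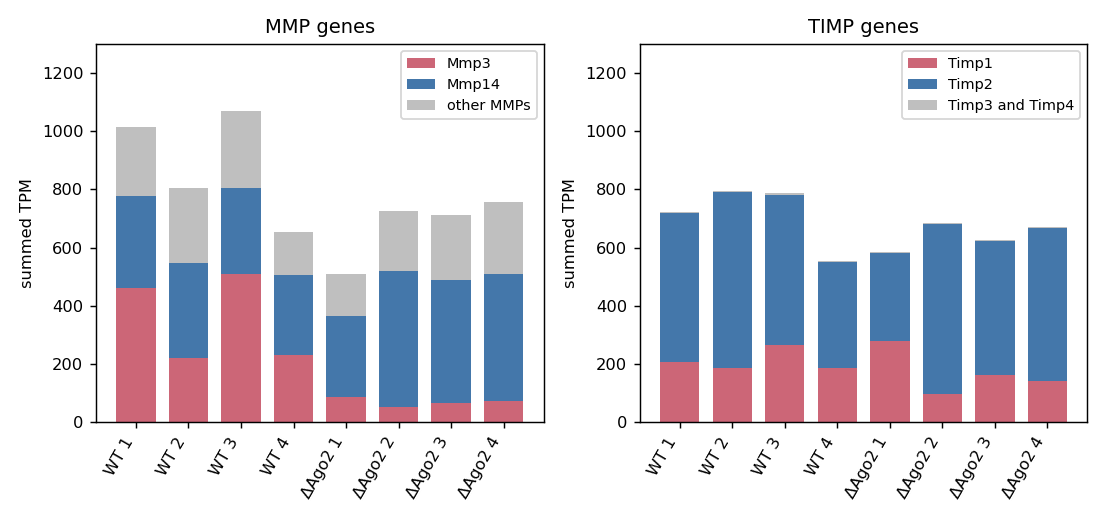
Summed TPM (y axis, from 0) of the MMP genes (left) and TIMP genes (right) in each tumor, with WT for wild-type, and with Mmp3, Mmp14, Timp1 and Timp2 in color. The Mmp3 share is large in the 4 wild-type tumors and small in the 4 ΔAgo2 tumors, and Mmp14 and Timp2 fill most of the rest.

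Per length, the MMP genes together had 1014, 803.5, 1068 and 652 TPM in wild-type tumors and 509.2, 727.5, 711.9 and 755.7 TPM in ΔAgo2 tumors. Mmp3 made 45.6, 27.5, 47.8 and 35.3% of that sum in wild-type and 16.9, 7.19, 9.07 and 9.63% in ΔAgo2 tumors, whereas Mmp14 made 27.6 to 42.2% and 55.1 to 64.3%. With Mmp3 left out the MMP sum was 422 to 582.1 TPM and 423.2 to 683 TPM, so the groups overlapped. TIMP genes summed to 552.2 to 794.5 and 585 to 683.6 TPM, and the ratio of MMP to TIMP TPM was 1.01 to 1.41 in wild-type and 0.87 to 1.14 in ΔAgo2 tumors, also with overlap. These sums are descriptions of transcripts and carry no test, and they say nothing of enzyme activity.

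Adamts1 (ENSMUSG00000022893.14, chr16:85793827-85803113, minus strand) cuts versican and aggrecan and binds vascular endothelial growth factor. It had 41.6, 54.9, 45.9 and 41.9 CPM in wild-type tumors 1 to 4 and 8.31, 19.0, 21.9 and 21.97 CPM in ΔAgo2 tumors 1 to 4. The groups lay far apart, and ΔAgo2 tumor 1 was the lowest. The log2 fold change was -1.37 (standard error 0.30, edgeR adjusted p = 0.0355), which is 2.59-fold lower. It passed in 12 of 21 alternatives, with log2 fold changes from -1.54 to -1.06. Without wild-type tumor 2 or 4, or ΔAgo2 tumor 2, 3 or 4, the adjusted p was 0.111, 0.0628, 0.0964, 0.0739 and 0.0878.

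The other proteoglycan-cutting ADAMTS genes did not pass. Adamts9 had 7.31, 10.1, 10.4 and 3.58 CPM in wild-type and 7.30, 21.3, 13.6 and 19.4 CPM in ΔAgo2 tumors, with a log2 fold change of 0.96 (standard error 0.39, adjusted p = 0.154). Adamts8 had 73, 15, 57 and 2 counts against 23, 40, 17 and 129 counts, which is 0.287 to 1.37 CPM and 0.351 to 0.507 CPM, with a log2 fold change of -1.10 (standard error 0.44, adjusted p = 0.148). Adamts4, Adamts5 and Adamts15 had log2 fold changes of -0.46, -0.64 and -1.06. The value for Adamts5 was 0.07 without wild-type tumor 3, where it stood at 10.9 CPM against 1.48 to 4.47 CPM in the other tumors. Of the 6 genes tested in this group 5 had a log2 fold change below 0.

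Of the procollagen N-proteinases, Adamts14 was the most abundant, at 58.7 ± 17.7 TPM in wild-type and 55.0 ± 21.6 TPM in ΔAgo2 tumors (SD, n = 4). Its log2 fold change of -0.37 (standard error 0.24, adjusted p = 0.334) became 0.23 with the GC trend removed. Adamts3 had the highest log2 fold change of all, 1.72 (standard error 0.81, adjusted p = 0.202), from 16, 17, 10 and 0 counts in wild-type and 11, 263, 16 and 450 counts in ΔAgo2 tumors. Only ΔAgo2 tumors 2 and 4, at 2.31 and 1.57 CPM, lay above the wild-type values of 0 to 0.811 CPM. Adamts2 had a log2 fold change of -0.82 (adjusted p = 0.131).

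Adamts6, which acts on microfibrils, had 5.13, 10.01, 4.39 and 6.16 CPM in wild-type and 6.20, 27.7, 12.5 and 18.9 CPM in ΔAgo2 tumors. ΔAgo2 tumor 1 lay within the wild-type range and the other 3 above it. The log2 fold change was 1.35 (standard error 0.44, adjusted p = 0.0979), and without ΔAgo2 tumor 1 it was 1.61 and passed (adjusted p = 0.0311). It was 0.66 with the GC trend removed (adjusted p = 0.424) and 0.96 when ΔAgo2 tumor 2 was left out. Adamts17 had 6, 5, 9 and 0 counts against 14, 58, 8 and 104 counts. In CPM the groups did not overlap (0 to 0.238 against 0.239 to 0.509). Their nearest values, 0.2384 CPM in wild-type tumor 2 and 0.2388 CPM in ΔAgo2 tumor 3, rest on 5 and 8 counts. The wild-type value of 0 allows up to 0.43 CPM, so whether the groups overlap could not be resolved. The log2 fold change was 1.21 (standard error 0.54, adjusted p = 0.182). Adamts7, Adamts10 and Adamts12 had log2 fold changes of -1.07, -0.97 and 0.02, and adjusted p-values of 0.092, 0.12 and 0.979. With the GC trend removed these were -0.51, -0.32 and -0.20, and Adamts12 was at 0.65 when wild-type tumor 3, its highest at 5.19 CPM, was left out.

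Among the ADAMTS-like genes, Adamtsl5 had 45.0, 78.4, 37.2 and 72.8 CPM in wild-type and 35.9, 47.3, 39.4 and 35.8 CPM in ΔAgo2 tumors, with a log2 fold change of -0.56 (standard error 0.26, adjusted p = 0.198). Adamtsl3, named after its values were seen, had 40.2, 57.3, 45.7 and 32.1 CPM against 30.5, 116.5, 70.3 and 98.1 CPM. As for Adamts6, ΔAgo2 tumor 1 was apart from its group, and the log2 fold change of 0.85 (adjusted p = 0.167) was 1.1 without it and passed (adjusted p = 0.0309). Adamtsl1 and Adamtsl4 had -0.62 and -0.89 and did not pass. Leaving out wild-type tumor 3 moved Adamtsl1 to 0.04, and removing the GC trend moved Adamtsl4 to -0.21.

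The 12 genes that were not tested had between 0 and 64 counts over all libraries. They were Mmp7, Mmp16, Mmp20, Mmp21, Mmp24, Timp4, Adamts13, Adamts16, Adamts18, Adamts19, Adamts20 and Adamtsl2. Mmp20 and Mmp21 had 0 counts in every library, and the 5 counts of Adamts13, the protease of von Willebrand factor, were all in ΔAgo2 tumor 4. No difference was detectable for them at this depth.

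**Figure D5:**
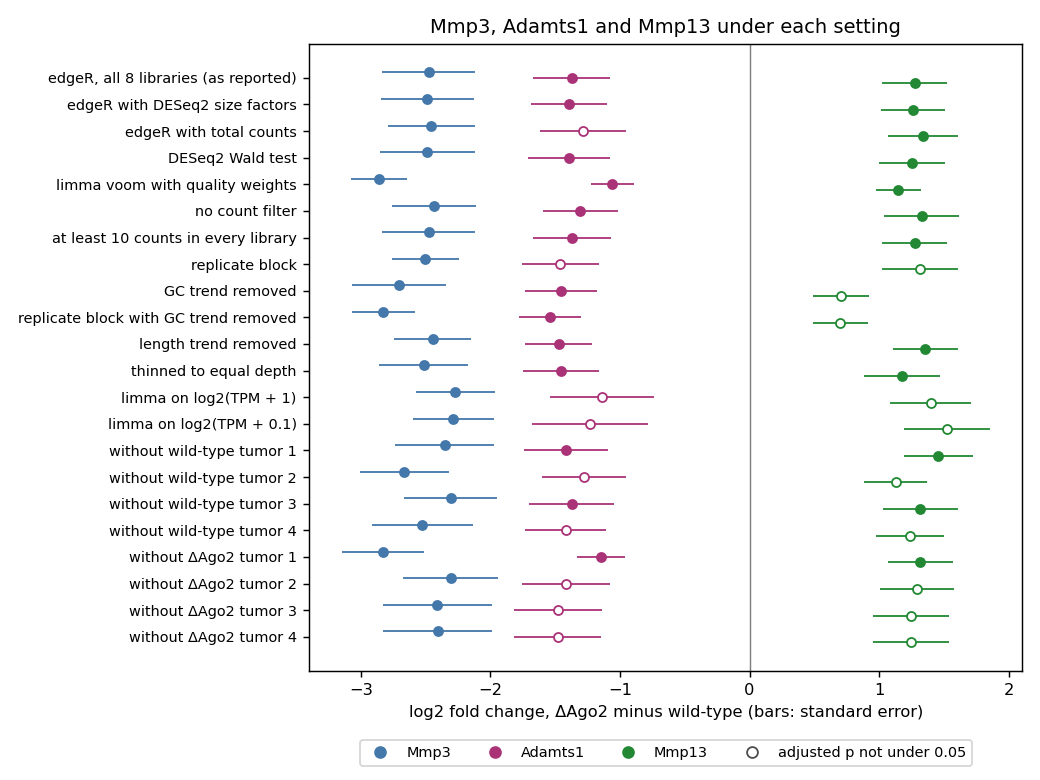
Log2 fold change (ΔAgo2 minus wild-type, x axis) with its standard error for Mmp3, Adamts1 and Mmp13 in the reported fit and in 21 alternative settings (rows), with open points where the adjusted p was not under 0.05. Mmp3 stays between -2.86 and -2.27 and is filled in every row, whereas Adamts1 and Mmp13 keep their sign and are open in 9 and 10 of the alternatives.

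The number of these genes that passed differed between settings, each given with the share of all genes that passed. By DESeq2's Wald test 7 of the 38 passed (Mmp3, Mmp13, Mmp23, Adamts1, Adamts6, Adamts7 and Adamtsl4), against 14.2% of all genes. By limma voom with a quality weight for each library 14 did, against 27.9%. Mmp3, Mmp13 and Adamts1, and no other, passed with DESeq2's size factors (3.52% of all genes), a minimum of 10 counts per library (4.53%), no minimum (3.24%), the length correction (7.33%) and libraries thinned to equal depth (4.07%), and when wild-type tumor 1 (4.05%) or 3 (5.68%) was left out. Mmp3 and Mmp13 passed with total counts as the scale (2.6%). Mmp3 and Adamts1 passed with the GC trend removed (3.77%), also with the replicate number as a block (1.94%). Mmp3 alone passed with that block and no GC correction (0.436%), on log2(TPM + 1) (0.993%) and on log2(TPM + 0.1) (0.694%). It was also alone when wild-type tumor 2 (0.87%) or 4 (1.61%) or ΔAgo2 tumor 2 (1.02%), 3 (0.902%) or 4 (0.541%) was left out. With ΔAgo2 tumor 1 left out, Mmp3, Mmp13, Mmp23, Timp1, Adamts1, Adamts6 and Adamtsl3 passed, against 11% of all genes.

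How the tumors varied was also described over all 38 tested genes. Wild-type tumor 3 was the highest of its group for 16 of the 38 (42.1%, against 30.4% of all genes tested), and ΔAgo2 tumors 1 and 2 were the lowest of theirs for 17 and 16 (44.7% and 42.1%, against 43.2% and 29.6% of all genes). The median log2 fold change of the 38 was -0.33 when wild-type tumor 3 was left out and -0.51 when ΔAgo2 tumor 1 was. Of 10 fibroblast markers 0 passed, but 6 had an unadjusted p under 0.05, against 26.7% of all genes. Their log2 fold change was below 0 for 6 and above 0 for 4, with a median of -0.51. Fibroblast markers summed to 1448 to 2676 TPM in wild-type and 781.9 to 2144 TPM in ΔAgo2 tumors. Endothelial markers (0 of 10 passed) summed to 160.1 to 240.7 and 169.9 to 223.9 TPM. Of 10 muscle markers 0 passed, but all 10 had a log2 fold change below 0 (median -2.87) and 9 an unadjusted p under 0.05. All 10 keratinocyte markers were above 0 (median 1.43), and 2 passed. Of adipocyte, neutrophil and lung epithelial markers 0 of 9, 0 of 5 and 0 of 5 tested passed. The part of these cell types in the proteases' values was not tested. The median GC content of the 38 genes was 53.55%, against 49.83% over 15906 genes, and log2 fold changes fell with GC content (Spearman's rho -0.375 over the 38 and -0.561 over all, across genes, which are not independent). With the GC trend removed the median of the 38 was -0.20, and 25 of the 38 were below 0, against 50.1% of all genes. These were not all the same genes, since Mmp11, Adamts14 and Adamtsl5 had moved above 0 and Mmp10, Timp3 and Adamts12 below.

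Genes around these proteases were taken from lists chosen for their function, and their counts are to be read against 3.49% of all genes past the threshold, 26.7% at an unadjusted p under 0.05 and 14.2% by DESeq2's Wald test. Of 8 tested genes of plasminogen activation, the protease cascade that can activate pro-MMPs, 0 passed and the median log2 fold change was 0.32. Of 12 tested MMP activators and other inhibitors 0 passed and the median was -0.65. Reck, a membrane-anchored MMP inhibitor named after its values were seen, had 2.29 to 3.34 CPM in wild-type and 1.03 to 1.47 CPM in ΔAgo2 tumors, and its log2 fold change was -1.05 (adjusted p = 0.0798). At an unadjusted p under 0.05 there were 2 of the 8 and 4 of the 12, and by the Wald test 2 and 4 passed.

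Of 8 tested ADAM sheddases, the membrane-bound relatives of the ADAMTS enzymes, 6 had an unadjusted p under 0.05. The log2 fold change was above 0 for 5 of the 8 and below 0 for 3, and Adam19 alone passed. It had 17.5, 28.1, 19.5 and 15.5 CPM in wild-type and 4.45, 4.77, 4.42 and 4.97 CPM in ΔAgo2 tumors. The ΔAgo2 values were close together and far below the wild-type ones, with a log2 fold change of -2.12 (standard error 0.24, edgeR adjusted p = 0.00215), and it passed in 19 of 21 alternatives. Of 14 tested cathepsins and other matrix-degrading enzymes, 5 had an unadjusted p under 0.05. Past the threshold, 1 was higher and 1 was lower. Hpse (heparanase, which cuts heparan sulfate) had 15.7, 16.0, 20.8 and 15.1 CPM against 30.8, 43.9, 40.8 and 47.1 CPM, with a log2 fold change of 1.26 (standard error 0.21, adjusted p = 0.0126). Fap, a serine protease of activated fibroblasts, had 6.26, 5.58, 12.2 and 8.03 CPM against 3.51, 2.23, 2.54 and 2.96 CPM, with a log2 fold change of -1.52 (standard error 0.32, adjusted p = 0.0329). Hpse and Fap passed in 15 and 13 of 21 alternatives.

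Of 14 AP-1 and ETS transcription factors, families that act on MMP promoters, 6 had an unadjusted p under 0.05 and only Etv5 passed. It had 54.4, 61.2, 56.1 and 57.5 CPM in wild-type and 30.4, 36.7, 32.9 and 33.6 CPM in ΔAgo2 tumors, with a log2 fold change of -0.78 (standard error 0.17, adjusted p = 0.0348), and passed in 9 of 21 alternatives. Jun, a subunit of AP-1 named after its values were seen, had 209.4, 270.1, 274.9 and 401.2 CPM against 119.2, 164.3, 175.1 and 133.6 CPM, which did not overlap. Its log2 fold change was -0.96 and its adjusted p 0.052. The median of the 14 was -0.59. Of 13 tested matrix substrates, 5 had an unadjusted p under 0.05, and the median was -0.13. Past the threshold, 3 were lower and none was higher (2.12% and 1.36% of all genes). These were the elastic fiber protein Eln (log2 fold change -1.81, adjusted p = 0.0355), the proteoglycan Bgn (-1.29, 0.0299) and the blood glycoprotein Vwf (-1.09, 0.0466), and they passed in 11, 13 and 8 of 21 alternatives. Aggrecan (Acan), a main substrate of ADAMTS enzymes in cartilage, had 5 counts in all.

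Because Ago2 carries microRNAs to their targets, sites for 6 well-known microRNAs were counted in the 3′ UTRs of the 38 tested genes. A site here is 8 letters, the complement of the seed (bases 2 to 8, capitals) followed by A, in 1 annotated transcript a gene. The 3 microRNAs shown are those of the sites described next, from RefSeq.
miR-29a-3p: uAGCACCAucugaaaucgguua
let-7a-5p: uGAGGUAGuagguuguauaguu
miR-21a-5p: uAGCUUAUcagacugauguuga
Adamts6 (miR-29a-3p site in capitals): gacagttaactTGGTGCTAatgtgccctgg
Adamts9 (miR-29a-3p site in capitals): ttgtgctgcctTGGTGCTAatattatatgt
Timp3 (miR-21a-5p site in capitals): ttgagctttcaATAAGCTAtagctttgttt

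The miR-29a-3p site was in 5 of the 38 genes (Adamts6, Adamts9, Adamts10, Adamts12 and Adamts17), against 3.35% of 13678 genes scanned. Their log2 fold changes were 1.35, 0.96, -0.97, 0.02 and 1.21, so the 5 did not share a direction, and none passed the test. Over all 458 genes with this site the median was 0.248, against 0.039 for all genes tested. Such medians were 0.204 to 0.348 for the 6 sites. Their cause was not tested, and the length of the 3′ UTRs was not taken into account. The let-7a-5p site was in Adamts8, Adamts12 and Adamts15 (3.8% of all genes), the miR-21a-5p site in Timp3 (2.24%), the miR-30a-5p site in Timp3 and Adamts6 (8.03%), the miR-27a-3p site in Adamts5 and Adamts10 (6.29%) and the miR-17-5p site in 0 (4.3%). Mmp3, Mmp13 and Adamts1 held none of these 6 sites, which says only that these letters are not in the transcripts searched.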

How the data were processed

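RNA-seq was performed on 8 LLC tumors, 4 per genotype, all with the same batch label. Groups and replicate numbers came from the sample titles. RNA was extracted with TRIzol and made into stranded mRNA libraries. The authors deposited raw gene counts, whole numbers with no normalization, and TPM values, which are counts divided by gene length and scaled to 1000000 per library. The submitters' processing notes name STAR and mm10. The annotation, strand setting and treatment of multi-mapped reads for the gene counts are not given in the sources used here, so genes that overlap others, or share reads with close copies, are uncertain. Identifiers were matched to GENCODE release M21 (99.29% of 55487). Mmp1a is annotated there as a polymorphic pseudogene, a class apart from the protein-coding genes of the rule, and was left out.

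Counts were filtered with filterByExpr, scaled by TMM and tested with the quasi-likelihood test of edgeR 4.0.16 in R 4.3.3 with no covariate, with Benjamini-Hochberg adjustment over all genes tested and a threshold of 0.05. CPM uses TMM-scaled totals. Standard errors belong to log2 fold changes. The genes named are those past the threshold, the 10 with the highest mean TPM, the TIMPs, the 5 highest and 5 lowest log2 fold changes, and genes of the lists past the threshold; the other genes were added to complete their family, or chosen after their values were seen. The members, lists, sites and tests were chosen with earlier results of these data known. Total counts per library were 7903288 to 268564145, so low genes are measured less precisely in the shallow libraries. Libraries of one group differed beyond sampling noise (chi-square per degree of freedom 39.1 to 734), and all 8 were kept. The labels call the tumors biological replicates without naming the mice, and p-values measure the spread between these samples. Promoter and microRNA sequences came from RefSeq tables (GRCm38.p6) and 3′ UTRs from GENCODE transcripts. The procedure was tested on simulated counts with a common dispersion for all genes and no GC or length trend, so that test does not cover such trends. The alternatives were other scalings and filters, DESeq2 1.42.0, limma 3.58.1 voom, limma on log2(TPM + 1) or log2(TPM + 0.1), the replicate block, GC and length corrections, thinning to equal depth, and leaving out each library. Other experiments of the paper were not used here.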

Additional observations from a re-analysis of the deposited data

Results flagged for a closer look

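Values were put on the log2 CPM scale, with a small count added before the log. In 40 groups of 4 such values, the distance of the highest or lowest tumor from its nearest neighbor was divided by the group's range. This ratio was set against Dixon's critical value at 95%. Gaps below are shares of the log2 range, while the levels beside them are CPM. Chance singles out about 1 in 20 groups, and 5 were singled out here.

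For Adamts1, ΔAgo2 tumor 1 was low, with 8.31 CPM where the rest of its group had 19.0 to 21.97 CPM, a gap of 0.848 of the log2 range. For Timp2, wild-type tumor 2 was high, with 830.6 CPM where its group otherwise had 696.3 to 704.5 CPM, a gap of 0.933. Mmp14 was high in ΔAgo2 tumor 3, with 804.3 CPM beside 761.6 to 763.1 CPM, a gap of 0.963. Mmp11 was high in ΔAgo2 tumor 4, with 31.7 CPM beside 27.0 to 27.3 CPM, a gap of 0.915. Mmp1b had 0 counts in wild-type tumor 4, which allows up to 0.43 CPM, where its group otherwise had 0.477 to 0.841 CPM, a gap of 0.844.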

How the results depend on the processing

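All alternatives were planned. In the reported fit 560 genes and 3 of the 38 tested genes passed, and the median log2 fold change of the latter was -0.45. DESeq2's Wald test gave 2274 genes and 7 of these proteases and inhibitors, and limma voom with quality weights gave 4476 and 14. No count filter gave 983, the length correction 1178, log2(TPM + 1) 153 and 1 (median -0.148), and log2(TPM + 0.1) 107 and 1 (median -0.153). The GC correction gave a median of -0.203. Leaving out 1 library at a time gave 88 to 1793 genes, 1 to 7 of the 38 (7 when ΔAgo2 tumor 1 was out, 1 when wild-type tumor 2 or 4 or ΔAgo2 tumor 2, 3 or 4 was) and medians of -0.509 to -0.332. The median was below 0 in all 21 settings, over the genes each one tested (48 with no filter, 30 with at least 10 counts, 31 thinned, 33 on TPM, otherwise 38). The fits on TPM and the fit with no filter moved the median of all genes by over 0.1, to 0.214, 0.284 and 0.158.

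With the replicate number as a block, 70 genes and 1 of the 38 (Mmp3, log2 fold change -2.50, adjusted p = 0.0261) passed, and the block with the GC correction gave 311 genes and a median of -0.178. Deviations of tumors of equal number had correlations of -0.384 to 0.115, and 0 of 8 correlated best with its own number. The highest correlation between the groups was 0.405, for wild-type tumor 4 and ΔAgo2 tumor 1. Such correlations also follow differences between whole libraries and could miss a weaker shared effect. The labels do not say what the numbers stand for, so whether they pair the tumors could not be resolved.

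Of 406 log2 fold changes of named genes under the alternatives, 361 kept sign and side of the threshold, 19 no longer passed, 13 newly passed and 13 changed sign, none of them past the threshold. The last were Mmp11 with voom (0.161), the GC correction (0.226), the block with GC correction (0.215), log2(TPM + 1) (0.040) and log2(TPM + 0.1) (0.041). They were also Timp3 with the GC correction (-0.086), the length correction (-0.051) and when wild-type tumor 1, 2 or 4 was out (-0.009, -0.009 and -0.088, with 0.67 when tumor 3 was), Adamts14 with the GC correction (0.232) and the block with it (0.206), and Adamtsl5 with the GC correction (0.001). Among the genes outside the rule, Mmp10, Adamts5, Adamts12 and Adamtsl1 also changed sign under some alternatives. The cause was not tested. Depth limits Mmp1b, Adamts3, Adamts8 and Adamts17, which had few counts in wild-type tumor 4.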
